A study of Homo sapiens with 2 samples.

Results

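A family of 10 long noncoding RNAs (lncRNAs) that carry small nucleolar RNAs (snoRNAs) in their introns, GAS5, ZFAS1, SNHG1, SNHG5, SNHG6, SNHG7, SNHG8, SNHG12, SNHG15 and SNHG16, was followed in hNCI-H716 cells at low and high glucose. They were taken by name from the deposited gene table, and all 10 had a row among its 19989 genes. The hNCI-H716 line comes from a human colorectal adenocarcinoma of the cecum and serves as a model of the L-cell, the enteroendocrine cell that secretes glucagon-like peptide-1. Cells were attached to Matrigel and then cultured for 48 h in DMEM with serum, containing either 5.5 mM glucose (low glucose, 1 library) or 25 mM glucose (high glucose, 1 library). RNA selected for polyadenylated transcripts was sequenced from each culture. Values are library-scaled counts (CPM). The low glucose library held 21755371 estimated counts, so that 1 count was worth 0.0460 CPM, and the high glucose library held 19454338, with 1 count worth 0.0514 CPM. With 1 library at each concentration, none of the differences given here has a replicate check, and every interval covers counting error only. In these bulk libraries, fewer cells of a type and less RNA per cell cannot be told apart.

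The identity of the cells was examined first, with markers of the line and of other cell types. GCG, which encodes proglucagon, was at 1951 CPM at 5.5 mM and 1811 CPM at 25 mM, and the endocrine genes CHGA, PCSK1 and SCGN were at 703, 554 and 16.9 CPM at 5.5 mM and at 654, 601 and 20.4 CPM at 25 mM. Of the epithelial genes, KRT8 (270 CPM at 5.5 mM and 291 CPM at 25 mM) and KRT18 (182 and 213 CPM) were abundant, whereas EPCAM was at 3.37 CPM at 5.5 mM and 3.51 CPM at 25 mM. CDH1, the epithelial cadherin, was at 0.0581 CPM at 5.5 mM, under the 0.138 CPM that a count of 0 allows in that library, and at 0.166 CPM at 25 mM, where a count of 0 allows 0.154 CPM. The endocrine markers were thus present and the defining epithelial adhesion genes were low or near the limit of detection. Among markers of other cells, the hepatocyte gene ALB (456 CPM at 5.5 mM and 488 CPM at 25 mM) and the enterocyte gene SI (117 and 124 CPM) were well above that limit. The endothelial gene PECAM1 was at 0.426 and 0.372 CPM and the fibroblast gene COL1A1 at 0.0581 and 0.115 CPM. PTPRC, INS and ALPI were not analysed here. Any part of these marker levels in the values of the host transcripts was not tested.

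A snoRNA is a short nuclear RNA that guides the chemical modification or cleavage of ribosomal RNA, and most human snoRNAs are released from the introns of a longer host transcript. Box C/D snoRNAs guide the methylation of ribose, and box H/ACA snoRNAs guide the conversion of uridine to pseudouridine. Once the introns are removed, the spliced RNA of a noncoding host has short open reading frames, and for several hosts it is known to be engaged by ribosomes and degraded by nonsense-mediated decay, so that it accumulates when translation slows. Several hosts, GAS5 among them, also start with a 5′-terminal oligopyrimidine tract, the feature by which ribosomal protein mRNAs respond to growth signals.

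The label of the family was checked against the annotation. Of 35 snoRNAs listed for the 10 genes, all 35 lay, by their RefSeq positions, within the GENCODE span of their host on GRCh38. Box C/D snoRNAs alone were carried by 6 of the genes, with 10 in GAS5, 8 in SNHG1, 3 each in ZFAS1 and SNHG16, 2 in SNHG5 and 1 in SNHG6. Box H/ACA snoRNAs alone were carried by 3 genes, with 2 in SNHG7 and 1 each in SNHG8 and SNHG15. SNHG12 was the member with both kinds, 3 of box H/ACA and 1 of box C/D. The bodies of 29 of the 35 snoRNAs shared bases with an exon of some annotated transcript of the host. Only 1 of the 35, SNORA61 of SNHG12, had a value of its own in the gene table, at 0.0121 CPM at 5.5 mM and 0.161 CPM at 25 mM, which corresponds to fewer than 3 counts in each library. The measurements below are therefore the values of the host genes in RNA selected for polyadenylated transcripts, and they do not give the levels of the snoRNAs. Any share of reads from snoRNA bodies in the host values was not tested.

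The start sites are shown because all 10 members had lower values in high glucose and because the oligopyrimidine tract lies at the start of the RNA. Promoters from RefSeq (GRCh38.p14) matched 8 of the 10 genes, all but SNHG6 and SNHG15. The windows printed run from 40 bases before to 30 bases after the annotated start, for the 4 matched genes whose ratio between the libraries, given further on, had an interval below 0. Capitals mark TATAA, searched from 40 to 16 bases before the start, and a run of at least 6 pyrimidines (C or T) that begins within 5 bases of the start.
GAS5 (chr1:173869016-173869085, minus strand): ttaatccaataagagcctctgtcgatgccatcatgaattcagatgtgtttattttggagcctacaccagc
ZFAS1 (chr20:49278602-49278671, plus strand): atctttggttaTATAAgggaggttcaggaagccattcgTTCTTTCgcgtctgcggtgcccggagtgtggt
SNHG5 (chr6:85678704-85678773, minus strand): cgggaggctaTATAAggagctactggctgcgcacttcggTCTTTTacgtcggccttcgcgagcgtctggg
SNHG12 (chr1:28581844-28581913, minus strand): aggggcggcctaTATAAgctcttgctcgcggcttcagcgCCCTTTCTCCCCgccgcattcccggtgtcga

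These motifs were chosen after the sequences had been read, so the shares describe these promoters and are not a test. A run that began further than 5 bases from the start was not counted as near it, whatever its length. A pyrimidine run of this kind was present in 7 of the 8 promoters, all but that of GAS5, against 12.1% of all 35116 promoters in the table, 10 of 22 promoters of ribosomal protein genes that also host snoRNAs and 6 of 17 promoters of other noncoding hosts. A run of at least 6 anywhere in the window was present in 7 of the 8 members, 21 of the 22 ribosomal protein genes, 12 of the 17 other noncoding hosts and 55.0% of all promoters. The median longest run in the window was 7 bases in the members, 12 in the ribosomal protein genes, 7 in the other noncoding hosts and 6 over all promoters. In SNHG12 the run was 12 bases long and began 1 base before the start, and in ZFAS1 it was 7 bases long and began 2 bases before it. Each window shows 1 RefSeq start only. The RefSeq starts of ZFAS1, SNHG5 and SNHG12 coincide with a GENCODE transcript start, whereas that of GAS5 lies 163 bases upstream of the nearest. The GAS5 window therefore lies outside the GENCODE span of the gene and shows none of its GENCODE transcript starts. A run at those starts of GAS5 was not searched for. TATAA was present on the strand of the gene in 5 of the 8 promoters (ZFAS1, SNHG5, SNHG7, SNHG8 and SNHG12), beginning between 28 and 34 bases before the start, and on the other strand in 1. Over all promoters the shares were 3.91% and 1.73%. On the strand of the gene, TATAA was present in 1 of the 22 ribosomal protein genes that host snoRNAs and in 1 of the 17 other noncoding hosts.

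A further sequence, ACTACA followed by any 2 bases and TCCC, was searched on both strands of the full promoters of 300 bases. It was likewise chosen after the sequences had been read, and is shown because it recurred among the members. It was found in 3 of the 8 promoters, each time on the strand of the gene, against 1.09% of all promoters on that strand and 1.75% on either strand. On either strand it was present in 2 of the 22 ribosomal protein genes and in 0 of the 17 other noncoding hosts. Capitals mark the match.
ZFAS1 (chr20:49278520-49278539, plus strand): cgagACTACATTTCCCagag
SNHG12 (chr1:28581957-28581976, minus strand): gcaaACTACAACTCCCaggc
SNHG16 (chr17:76557677-76557696, plus strand): ttgaACTACATTTCCCacca
The matches began 118 bases before the start of ZFAS1, 99 before that of SNHG12 and 83 before that of SNHG16. Of these genes, ZFAS1 and SNHG12 also carried TATAA and the pyrimidine run. A match describes these letters in this window and is not evidence of a bound factor, and no binding was measured in these libraries.

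All 10 host lncRNAs had a lower CPM in high than in low glucose. Across the 13052 genes whose mean reached 1 CPM, all 10 members among them, 50.4% were lower in high glucose at any size. The median log2 ratio of high over low glucose was −0.15 for the 10 members and −0.00 for the 13052 genes, whose 5th and 95th percentiles were −0.43 and 0.31. A CPM at least 20% lower in high glucose, a log2 ratio of −0.32 or less, was reached by 2 members, GAS5 and SNHG12, and by 8.03% of the 13052 genes. A change of the same log2 size upwards, at least 25% higher, was reached by none of the members and by 4.52% of the genes. The 95% exact (Clopper-Pearson) counting interval of the log2 ratio lay below 0 for 5 members and for 15.3% of all genes. It lay above 0 for none of the members and for 16.4% of all genes. Added together, the 10 transcripts made up 469 CPM at 5.5 mM and 399 CPM at 25 mM, a log2 ratio of −0.23. GAS5 alone accounted for 44.5% of that difference.

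**Figure D1:**
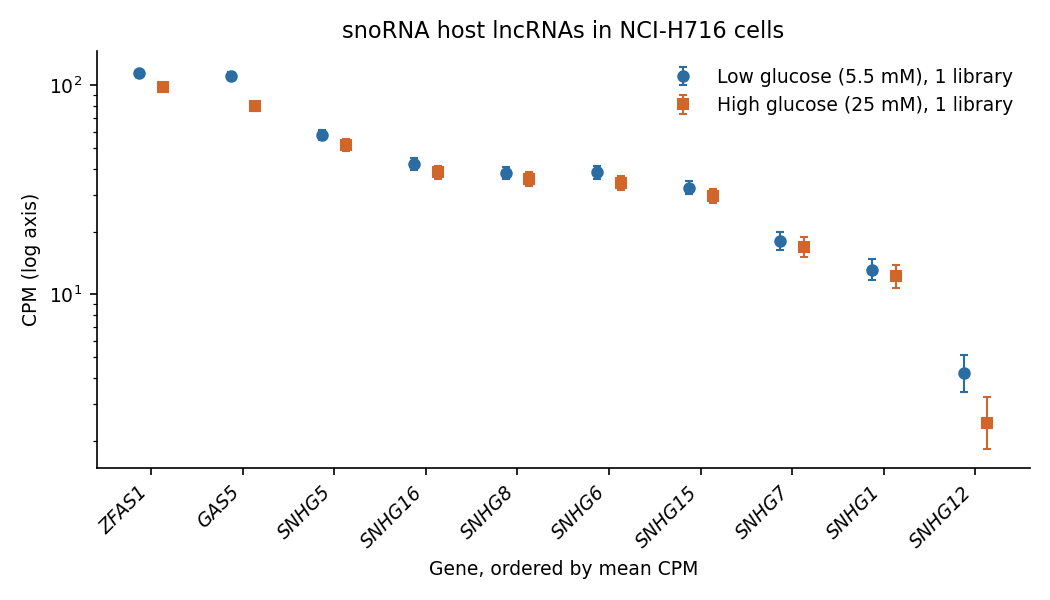
CPM on a log axis of each host lncRNA in the low glucose (circles) and high glucose (squares) library, 1 library each, with 95% Wilson intervals that cover counting error only. The high glucose value lies under the low glucose value for all 10 genes, and the intervals do not overlap for GAS5, ZFAS1 and SNHG12.

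The plot of CPM by library shows both values of each member. The box C/D hosts are described first. GAS5 (ENSG00000234741.7; chromosome 1 of GRCh38, 173863900 to 173868882, minus strand), the growth arrest-specific transcript that accumulates in resting cells and whose RNA can bind the glucocorticoid receptor, was at 111 CPM at 5.5 mM (95% Wilson interval 106 to 115, from 2408 estimated counts). In high glucose it was at 79.5 CPM (75.6 to 83.5, from 1546 counts). The high glucose library was lower and the intervals did not overlap. The log2 ratio was −0.48 (−0.57 to −0.39), that is, 1.39 times as much at 5.5 mM as at 25 mM. Of the 13052 genes, 528 (4.05%) had a lower ratio than GAS5, and of the 9345 genes whose mean reached 10 CPM, 0.685% did.

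ZFAS1 (chromosome 20, 49278178 to 49295738, plus strand), transcribed from the opposite strand at the 5′ end of ZNFX1, has an RNA that is found on ribosomes. It was at 114 CPM at 5.5 mM (110 to 119, from 2484 counts) and 98.4 CPM at 25 mM (94.1 to 102.9, from 1914 counts), again without overlap of the intervals. The log2 ratio was −0.21 (−0.30 to −0.13), with the high glucose library lower, but by less than 20%, and 14.7% of the 13052 genes had a lower one.

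SNHG5 (chromosome 6, 85660950 to 85678748, minus strand), the host of the U50 snoRNAs, was at 57.8 CPM at 5.5 mM (54.7 to 61.1) and 51.8 CPM at 25 mM (48.7 to 55.1). SNHG6 (chromosome 8, 66921684 to 66926398, minus strand), the host of SNORD87, was at 38.3 CPM at 5.5 mM (35.8 to 41.0) and 34.1 CPM at 25 mM (31.6 to 36.8). For both genes the high glucose library was lower and the intervals of the 2 CPM values overlapped, while the interval of the log2 ratio itself lay below 0, at −0.16 (−0.28 to −0.04) for SNHG5 and −0.17 (−0.32 to −0.02) for SNHG6.

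SNHG16 (chromosome 17, 76557766 to 76565348, plus strand), the host of the SNORD1 snoRNAs, was at 42.1 CPM at 5.5 mM (39.5 to 44.9) and 38.5 CPM at 25 mM (35.8 to 41.3). SNHG1 (chromosome 11, 62851988 to 62855914, minus strand), the host of U22 and the U25 to U31 group of snoRNAs, was at 13.2 CPM at 5.5 mM (11.7 to 14.8) and 12.2 CPM at 25 mM (10.7 to 13.8). The low and high glucose intervals overlapped for both genes, and their log2 ratios of −0.13 (−0.27 to 0.01) and −0.11 (−0.36 to 0.14) had intervals that included 0. A difference was therefore not detectable at this depth for SNHG16 or SNHG1.

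The 3 hosts of box H/ACA snoRNAs alone were SNHG7, SNHG8 and SNHG15. SNHG8 (chromosome 4, 118278709 to 118279823, plus strand), the host of SNORA24, was at 38.2 CPM at 5.5 mM (35.7 to 40.9) and 35.6 CPM at 25 mM (33.0 to 38.3). SNHG15 (chromosome 7, 44983023 to 44986961, minus strand), the host of SNORA9, was at 32.5 CPM (30.1 to 34.9) and 29.6 CPM (27.2 to 32.1). SNHG7 (chromosome 9, 136721366 to 136728184, minus strand), the host of SNORA17A and SNORA17B, was at 17.9 CPM (16.2 to 19.8) and 16.9 CPM (15.2 to 18.8). In each of the 3 the high glucose value was the lower one, the CPM intervals overlapped and the interval of the log2 ratio included 0. Their log2 ratios ran from −0.13 for SNHG15 to −0.09 for SNHG7, and the ratio of SNHG7 was the smallest in size among the 10 members. The 6 hosts of box C/D snoRNAs alone ran from −0.48 to −0.11, so the ranges of the 2 classes overlapped.

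SNHG12 (chromosome 1, 28578538 to 28583132, minus strand), which carries both classes, had the largest ratio in size of the 10 members. It was at 4.19 CPM at 5.5 mM (3.41 to 5.13, from 91 counts) and 2.43 CPM at 25 mM (1.82 to 3.22, from 47 counts). The intervals did not overlap, and the high glucose library was the lower one. The log2 ratio was −0.79, and its interval of −1.33 to −0.27 was the widest of the 10 and included −0.32. Of the 13052 genes, 151 (1.16%) had a lower ratio.

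**Figure D2:**
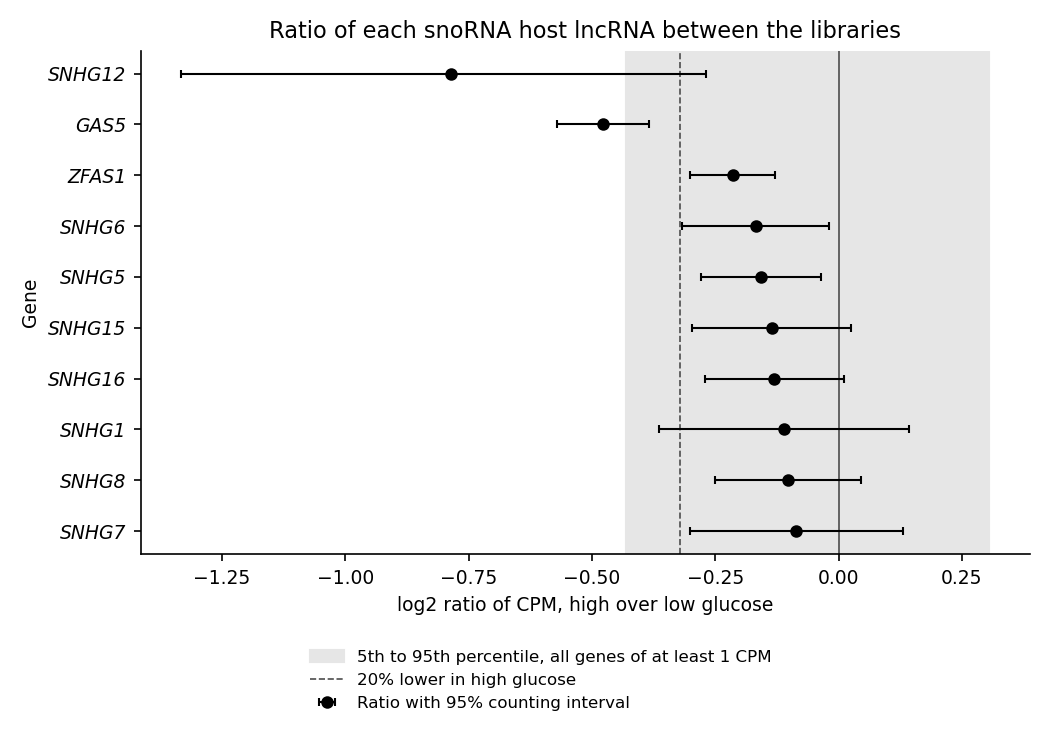
Log2 ratio of CPM, high over low glucose, of each host lncRNA (points) with its 95% counting interval (bars), the value for a level 20% lower (dashed line) and the range between the 5th and 95th percentiles of the 13052 genes whose mean reached 1 CPM (grey). The points of GAS5 at −0.48 and SNHG12 at −0.79 lie beyond the dashed line and outside the grey range, though both intervals reach into that range. The other 8 genes lie between −0.21 and −0.09.

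The members were compared with each other by these intervals, as drawn in the plot of log2 ratios. The interval of GAS5 overlapped that of SNHG12 and those of 0 of the other 8 members. The interval of SNHG12 overlapped those of 7 of the other 8, all but SNHG8. The 8 intervals shared a common range from −0.25 to −0.13, so at this depth no order could be read among ZFAS1, SNHG1, SNHG5, SNHG6, SNHG7, SNHG8, SNHG15 and SNHG16. The median log2 ratio of these 8 was −0.13. Of the 8, the interval lay below 0 for 3 (ZFAS1, SNHG5 and SNHG6) and included 0 for 5.

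**Figure D3:**
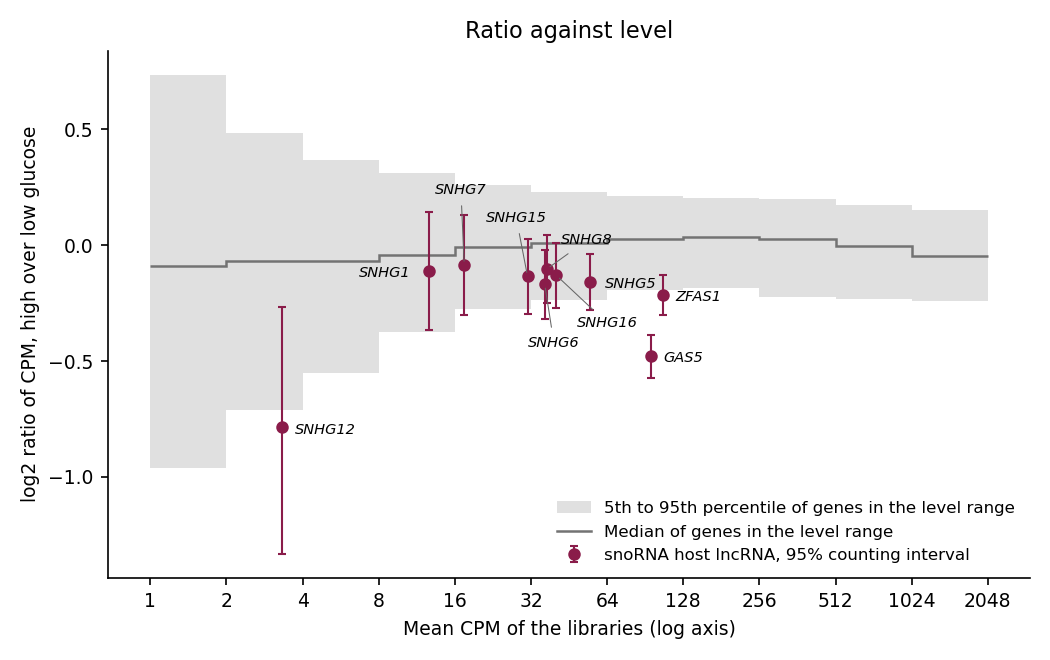
Log2 ratio of CPM, high over low glucose, against the mean CPM of the libraries (log axis) for each host lncRNA, with 95% counting intervals, over the median (line) and the 5th to 95th percentile range (grey) of all genes in each range of level from 1 to 2048 CPM. The points of GAS5, ZFAS1 and SNHG12 lie under the grey range at their own level, and the other 7 lie inside it. The intervals of ZFAS1 and SNHG12 reach into the grey range.

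In the plot of ratio against level, the spread of ratios among all genes narrowed up to 256 CPM and was slightly wider above it. Of the 1885 genes with a mean from 64 to 128 CPM, which is the range of GAS5 and ZFAS1, the median log2 ratio was 0.03 and the 5th percentile was −0.20. GAS5 at −0.48 and ZFAS1 at −0.21 were both below that percentile. The interval of GAS5 (−0.57 to −0.39) lay wholly below it, whereas that of ZFAS1 (−0.30 to −0.13) included it. Of the 1053 genes from 2 to 4 CPM, the range of SNHG12, the 5th percentile was −0.71 and SNHG12 was at −0.79. The interval of SNHG12 (−1.33 to −0.27) included that percentile. The other 7 members were between the 5th percentile and the median of the genes at their level, on the low side in each case.

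Levels were compared between members only as CPM per kb of the union of annotated exons. In low glucose, the highest level on this scale was that of ZFAS1 at 50.9 CPM per kb (48.9 to 52.9), followed by SNHG8 at 41.4 (38.7 to 44.3), SNHG6 at 30.7 (28.7 to 32.9) and GAS5 at 30.5 (29.3 to 31.7). SNHG5 followed at 20.6 CPM per kb, SNHG15 at 8.90, SNHG16 at 7.86, SNHG7 at 4.13 and SNHG1 at 3.50, and the lowest was SNHG12 at 0.983. Neighbours in this order whose intervals overlapped were SNHG6 and GAS5, SNHG15 and SNHG16, and SNHG7 and SNHG1. In high glucose the order was the same, but GAS5 at 21.9 CPM per kb (20.8 to 23.0) no longer overlapped SNHG6 at 27.4 (25.4 to 29.5). The other overlapping neighbours in high glucose were again SNHG15 with SNHG16 and SNHG7 with SNHG1.

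**Figure D4:**
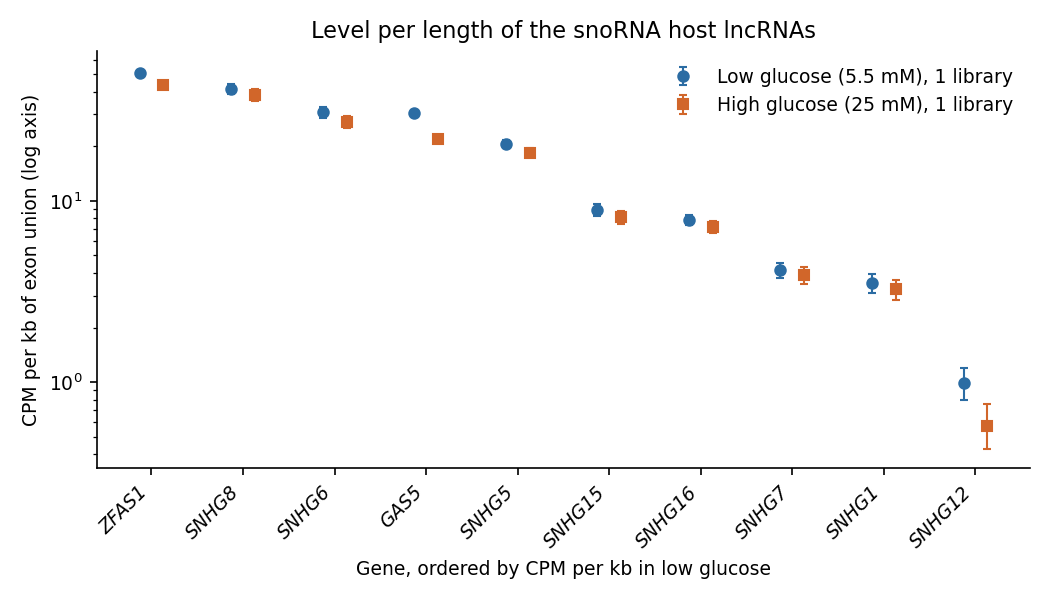
CPM per kb of exon union on a log axis for each host lncRNA in the low glucose (circles) and high glucose (squares) library, 1 library each, with 95% Wilson intervals. ZFAS1 is highest and SNHG12 lowest in both libraries, and the intervals of GAS5 and SNHG6 overlap in low but not in high glucose.

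The order in the plot of CPM per kb depended on the length used. Per kb of the median annotated transcript, GAS5 was at 161 CPM per kb at 5.5 mM, next to ZFAS1 at 172 and above SNHG5 at 86.0, SNHG8 at 81.3 and SNHG6 at 68.5. On this scale SNHG1 (17.6 CPM per kb) was above SNHG7 (12.2). ZFAS1 was the highest and SNHG12 the lowest with the union of exons, the median transcript and the longest transcript alike. The length is the same for both libraries, so it has no bearing on the ratios.

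The sequencing kit did not mark the strand, so reads of a host could not be separated from those of a gene on the opposite strand over shared exon bases. The overlapping genes were found by position. Exons of ZNFX1 shared 11.1% of the exon union of ZFAS1, and ZNFX1 was at 33.8 CPM at 5.5 mM and 34.8 CPM at 25 mM, a log2 ratio of 0.04 (−0.11 to 0.19). FAM69B shared 25.2% of the exon union of SNHG7 and was at 4.87 CPM at 5.5 mM and 6.51 CPM at 25 mM, with a log2 ratio of 0.42 (0.03 to 0.80). MCMDC2 shared 29.3% of that of SNHG6 and was at 0.150 and 0.166 CPM. AC015802.6, which shared 30.6% of that of SNHG16, was not analysed here. For GAS5 the overlapping gene was GAS5-AS1, with 1.16% of the exon union and 0.380 and 0.372 CPM, and for SNHG12 it was TRNAU1AP, with 0.188%, 19.5 and 19.9 CPM and a log2 ratio of 0.03 (−0.17 to 0.24). No difference was detectable at this depth for ZNFX1 or TRNAU1AP, whereas the interval of FAM69B lay above 0. The share of reads assigned to either partner was not tested.

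The host lncRNAs were then set beside lists of related genes, described by counts and medians over members whose mean reached 1 CPM. Of 20 other noncoding snoRNA hosts, 9 had a value and 7 reached 1 CPM, of which 4 were lower and 3 higher in high glucose, with a median log2 ratio of −0.07 and none at least 20% lower. The one with the highest mean CPM, SNHG29 (listed as LRRC75A-AS1), was at 427 CPM at 5.5 mM and 392 CPM at 25 mM, a log2 ratio of −0.12 (−0.17 to −0.08). SNHG32 (listed as C6orf48) was at 113 and 108 CPM, with a log2 ratio of −0.07 (−0.15 to 0.02). SNHG3 and EPB41L4A-AS1 were both at −0.16 and SNHG11 was at 0.04, all 3 with intervals that included 0. The remaining 2, SNHG9 and SNHG10, were named after their values were seen. SNHG9 had 24 estimated counts at 5.5 mM and 25 at 25 mM, a log2 ratio of CPM of 0.22 (−0.65 to 1.09), and SNHG10 was at 3.18 and 3.87 CPM, a log2 ratio of 0.28 (−0.21 to 0.77). Of these 7 hosts, SNHG3, SNHG29 and EPB41L4A-AS1 had ratios within the range of the 8 members other than GAS5 and SNHG12. The other 4 had ratios above it. The intervals of all 4 reached into the range from −0.25 to −0.13 shared by the intervals of the 8 members, so they could not be told apart at this depth.

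Ribosomal protein mRNAs, some of which also host snoRNAs, are the classical transcripts with an oligopyrimidine start. All 24 of the list were lower in high glucose, with a median log2 ratio of −0.18 and a range from −0.26 to −0.05, and none was at least 20% lower. RPL13A was at 1465 CPM at 5.5 mM and 1221 CPM at 25 mM, a log2 ratio of −0.26 (−0.29 to −0.24). RPS2, with the highest mean CPM of the list, was at 2998 and 2720 CPM, a log2 ratio of −0.14 (−0.16 to −0.12). Among the members, ZFAS1 and the 7 others near it had ratios inside the range of these 24 genes, and GAS5 and SNHG12 had ratios below it. The 25 other protein-coding hosts were divided, with 13 lower and 12 higher and a median of −0.02. Their ratios ran from −0.26 for TAF1D, at 31.8 CPM at 5.5 mM and 26.6 CPM at 25 mM, to 0.19 for EIF4G2, at 734 and 837 CPM.

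**Figure D5:**
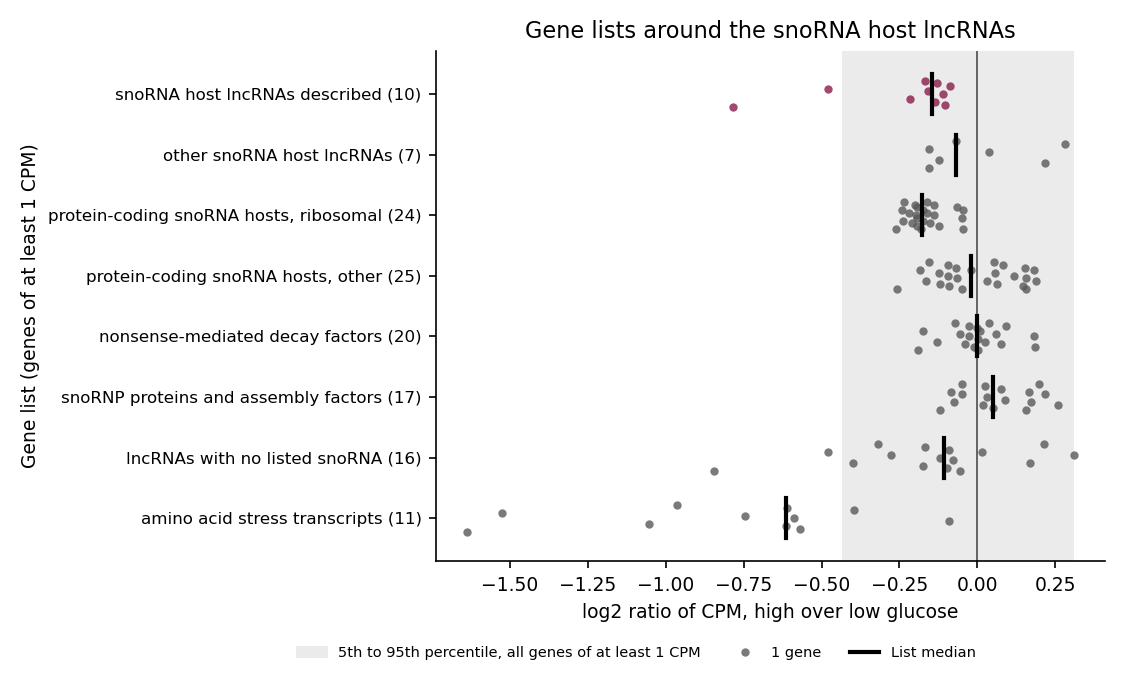
Log2 ratio of CPM, high over low glucose, of each gene whose mean reached 1 CPM (points) in the 10 host lncRNAs and in 7 other gene lists, with the median of each list (bars), the number of genes in parentheses and the 5th to 95th percentile range of all genes (grey). The medians run from −0.61 for the amino acid stress transcripts to 0.05 for the snoRNP proteins, and that of the host lncRNAs is −0.15.

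In the plot of gene lists, the medians of the factors that act on the hosts and on their snoRNAs were nearer to 0 than that of the hosts. Of 20 factors of nonsense-mediated decay, 10 were lower and 10 higher in high glucose, with a median log2 ratio of −0.00. SMG1, the kinase of the pathway, was at 121 CPM at 5.5 mM and 110 CPM at 25 mM (log2 ratio −0.13, −0.21 to −0.05), and the translation release factor GSPT1 was at 362 and 411 CPM (0.19, 0.14 to 0.23). Of 17 snoRNP proteins and assembly factors, 5 were lower and 12 higher, with a median of 0.05. FBL, the methyltransferase of box C/D particles, was at 216 and 224 CPM, a log2 ratio of 0.05 (−0.01 to 0.11). GAR1, a core protein of box H/ACA particles, was at 40.5 and 47.1 CPM, a log2 ratio of 0.22 (0.08 to 0.35). Neither list included a gene at least 20% lower in high glucose.

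Among 26 lncRNAs with no snoRNA listed, 16 reached 1 CPM, of which 12 were lower and 4 higher in high glucose, with a median log2 ratio of −0.11. Of the 4 that were higher, DLEU1 was at 27.3 CPM at 5.5 mM and 33.9 CPM at 25 mM (log2 ratio 0.31, 0.15 to 0.47). CRNDE, also higher, was at 22.9 and 25.8 CPM (0.17, −0.01 to 0.35). At least 20% lower were 3 of the 16, against 8.03% of the 13052 genes. All 3 were among the 10 of the list whose mean reached 10 CPM, where the share of all genes was 2.54%. NEAT1 was at 19.9 CPM at 5.5 mM and 11.1 CPM at 25 mM (log2 ratio −0.84, −1.08 to −0.60), NORAD at 293 and 210 CPM (−0.48, −0.54 to −0.42) and MALAT1 at 27.0 and 20.5 CPM (−0.40, −0.59 to −0.21). The ratio of GAS5 was therefore close to those of NORAD and MALAT1, whose intervals it overlapped, so a ratio of that size was also seen in lncRNAs without a listed snoRNA. Of 12 genes listed as amino acid stress transcripts, 11 had a value. All 11 were lower in high glucose, with a median log2 ratio of −0.61. Of these, 10 were at least 20% lower, against 8.03% of the 13052 genes. PSAT1, named after its values were seen, was less than 20% lower, at 141 CPM at 5.5 mM and 132 CPM at 25 mM (log2 ratio −0.09, −0.17 to −0.02). The list name is a label only, and amino acid supply was not measured. ATF4 was at 381 CPM at 5.5 mM and 254 CPM at 25 mM and DDIT3 at 63.1 and 21.9 CPM. These transcripts and the host lncRNAs were lower in the same library, and any relation between them was not tested.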

How the data were processed

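Polyadenylated RNA (TruSeq v2, no strand marking) of 1 library per glucose concentration was used. The authors trimmed reads with Trim Galore 0.5.0, aligned them to GRCh38 with STAR 2.6.0, estimated counts per gene with RSEM 1.3.1, removed genes with very low counts and used edgeR for normalization, and deposited CPM with a small prior of 0.0121. Of the deposited table, 6 other columns, which hold log2 CPM, means and the authors' ratios of high over low glucose, were not used.

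The deposited CPM were used as found. With the prior taken off, they added to 1000000 in each library, so the TMM normalization named by the study is not visible in them. Estimated counts were recovered from the steps between low values, of which 73.9% (low glucose) and 74.3% (high glucose) under 10 CPM were whole to within 0.05 counts, so no count model was run. Intervals at 95% are Wilson for CPM and exact binomial for ratios. A count of 0 allows 3 counts (0.138 and 0.154 CPM). Genes whose mean reached 1 CPM were described, with a level 20% lower or 25% higher (the same log2 size) as the threshold. No p-value was computed. The genes named were the 10 members and, from each list, up to 5 with the largest ratio in size and the 2 with the highest mean among those whose mean reached 10 CPM. The members and lists were chosen with earlier results of these data known. NOP56 and DKC1 are in 2 lists. Of the overlapping genes, 1 is not reported here. Exons came from GENCODE release 29, which is not the release of the study but is on the same assembly, and promoters and snoRNA positions from RefSeq (GRCh38.p14). Alternatives were TMM and median-of-ratios scaling, removal of the prior, a pseudocount of 1 CPM, other filters, folds and lengths. Calculations used Python 3.11.15, numpy 2.4.6, pandas 2.3.3, scipy 1.17.1 and matplotlib, and were tested on simulated libraries.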

Additional observations from a re-analysis of the deposited data

How the results depend on the processing

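Each member had a log2 ratio below 0 under TMM factors, median-of-ratios factors, removal of the prior and a pseudocount of 1 CPM. All 40 recomputed ratios stayed within the counting interval of the value reported. TMM factors moved every log2 ratio by −0.0044 and median-of-ratios factors by −0.00027, so for these scalings that outcome was fixed in advance. With the scaling, prior or pseudocount changed in these ways, 2 members were at least 20% lower, as reported. The count was 1 among genes whose mean reached 10 CPM, which leaves out SNHG12, 1 with a 1.5-fold lower level as the threshold, which leaves out GAS5, and 5 by a counting interval below 0. The share of all genes at least 20% lower, 8.03%, was 2.54% among genes whose mean reached 10 CPM, 19.6% with no filter on low values, 2.50% with the 1.5-fold threshold and 15.3% by a counting interval below 0. With no filter, 1 of the other noncoding hosts and 5 lncRNAs with no listed snoRNA were at least 20% lower, against 0 and 3. The median ratio of the members ran from −0.15 to −0.13 over its settings. All 40 values of CPM per kb with another transcript length fell outside the interval of the value per exon union.

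No paired analysis was possible because only 1 culture was sequenced per condition. The spread between cultures is unknown, and counting intervals are narrower than an interval over cultures would be. Depth limits SNHG12 most, with 91 and 47 estimated counts. Isoforms, snoRNA levels and reads shared with genes on the opposite strand were not resolved by a table of 1 value per gene.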
